A study of Mus musculus with 5 samples.

Results

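The genes described here are those of the proteasome. Of the 55487 genes in the deposited count table, 21936 of them protein-coding, 50 protein-coding genes had a symbol running from *Psma* to *Psmg* followed by a digit, and all 50 were kept. They were the 14 subunits of the core particle (*Psma1* to *Psma7* and *Psmb1* to *Psmb7*), the testis subunit *Psma8*, the 3 immunoproteasome subunits (*Psmb8*, *Psmb9* and *Psmb10*), the thymus subunit *Psmb11*, 17 subunits of the base and lid of the regulatory particle, 3 chaperones of base assembly (*Psmd5*, *Psmd9* and *Psmd10*), 5 activator genes (*Psme1*, *Psme2*, *Psme2b*, *Psme3* and *Psme4*), the inhibitor *Psmf1* and 4 core assembly chaperones (*Psmg1* to *Psmg4*). *Psmc3ip* also carries such a symbol, but its product acts in meiotic recombination and is no subunit. It had 0 counts in all 5 libraries.

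The study asked what the loss of *Zeb1*, a transcriptional regulator, in myeloid cells does to macrophages of the atherosclerotic aorta. Both groups were male mice without *Apoe*, whose product clears lipoproteins from plasma. They had 8 weeks of chow followed by 10 weeks of Western diet. The control group, labelled WT and named Zeb1WT/ApoeKO by the study, carried floxed *Zeb1* without Cre. The group labelled KO, Zeb1ΔM/ApoeKO, carried in addition Cre under the *Lyz2* promoter, which is active across myeloid cells, neutrophils included, and not in macrophages alone. Cells positive for CD45 and F4/80, and by the study's methods also for CD11b, were sorted from digested aortas, and cDNA was made with an ultra-low-input kit that amplifies full-length cDNA without keeping the strand. There were 2 Zeb1WT/ApoeKO and 3 Zeb1ΔM/ApoeKO libraries, whereas the study's methods speak of libraries in triplicate. The study's methods call its replicates biologically independent in general and, for the RNAseq, say that cells of 3 mice were pooled per genotype and condition, and the labels tie no library to an animal. The p-values below measure the spread between these libraries, of which a technical part cannot be told apart.

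The proteasome is the protease that degrades ubiquitin-tagged proteins in the cytosol and nucleus. Its core is a barrel of stacked alpha and beta rings of 7 subunits each, and the sites that cut lie on the beta subunits encoded by *Psmb5*, *Psmb6* and *Psmb7*. In cells of the immune system, and after interferon, these are replaced in newly built cores by *Psmb8*, *Psmb9* and *Psmb10*, giving the immunoproteasome, which is known for making peptides that fit MHC class I. The regulatory particle caps the barrel. Its lid removes ubiquitin and its base, with a ring of ATPases, unfolds the substrate and feeds it in, while the proteins of *Psme1* to *Psme4* form other caps that open the barrel without ATPases. A core in which none was replaced holds the same number of every alpha and beta subunit.

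Total counts ranged from 20118545 to 50649912 per library, and a floor of 3 counts, the smallest number read as detection, was 0.0592 to 0.149 CPM, the counts scaled to a common library total. Intervals and floors cover counting error only. The replicate 1 library of each genotype stood apart from the rest. Of the protein-coding genes over the floor, 70.7% had only 4 to 100 counts in Zeb1WT/ApoeKO replicate 1 and 93.4% in Zeb1ΔM/ApoeKO replicate 1, against 18.4% to 31.3% in the other 3 libraries. Zeb1ΔM/ApoeKO replicate 1 also had 51.4% of all protein-coding genes over the floor, against 18.5% to 25.2% elsewhere. The counts do not check the genotype labels, since *Zeb1* had 22 counts in Zeb1ΔM/ApoeKO replicate 1 and 0 in the others. Of 10 macrophage markers, 7 to 9 per library were over the floor, but at unlike levels. In Zeb1ΔM/ApoeKO replicate 1, *Cd68*, *Cd14*, *Csf1r* and *C1qa* had 10, 33, 25 and 5 counts, against at least 26412 for each in replicates 2 and 3, and *Cd68* and *C1qa* were at 0 in Zeb1WT/ApoeKO replicate 1. In Zeb1ΔM/ApoeKO replicate 1 *C1qb* also had 398502 counts, its highest, and *Lyz2* 161607, its lowest, and the 10 markers summed to 23049 CPM there and to 28632 to 37785 CPM in the others. *Mertk* was at 0 in 4 libraries. Markers of smooth muscle summed to at most 0.451 CPM and of B cells to at most 2.67 CPM. Endothelial markers summed to at most 72.3 CPM. Fibroblast markers reached 531 CPM in Zeb1ΔM/ApoeKO replicate 2, with 19005 counts of *Dcn*, and dendritic cell markers 431 CPM in Zeb1ΔM/ApoeKO replicate 3, with 21805 counts of *Cd209a*, and both lists summed to at most 3.53 CPM in the other libraries. The 6 neutrophil markers summed to 3592 and 880 CPM in the Zeb1WT/ApoeKO libraries and to 1360, 1502 and 138 CPM in the Zeb1ΔM/ApoeKO libraries, with *Mpo* at 0 in every library. In bulk RNA, fewer cells of a type and less RNA per cell cannot be told apart.

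In 3 libraries the counts of proteasome genes were either high or near 0, and in the replicate 1 libraries more of them lay between. In Zeb1WT/ApoeKO replicate 2 and Zeb1ΔM/ApoeKO replicates 2 and 3, 37, 33 and 37 of the 50 genes were over the floor, and 37, 32 and 36 of them had more than 100 counts. In Zeb1WT/ApoeKO replicate 1 only 21 genes were over the floor and 14 had more than 100 counts. In Zeb1ΔM/ApoeKO replicate 1 the numbers were 22 and 5. Thus 66% to 74% of proteasome genes were over the floor in the first 3 libraries named, and 42% and 44% in the replicate 1 libraries. The shares differed most from those of all protein-coding genes outside the replicate 1 libraries, where the latter were 18.5% to 25.2%. In replicate 1 of Zeb1WT/ApoeKO and Zeb1ΔM/ApoeKO the latter were 24.2% and 51.4%, so in Zeb1ΔM/ApoeKO replicate 1 the proteasome share was the smaller. The 50 genes together took 0.782% (Wilson 95% interval 0.779% to 0.786%) and 1.01% of all counts in the Zeb1WT/ApoeKO libraries, and 1.09%, 1.51% and 0.998% in the Zeb1ΔM/ApoeKO libraries. Similar totals were made of different genes. In Zeb1ΔM/ApoeKO replicate 1, *Psma7* held 44.8% (44.6% to 45.0%) of the proteasome counts and *Psmb6* 42.7% (42.5% to 42.9%), and these with *Psma6* made up 95.3%. The 3 leading genes made up 54.4% in Zeb1WT/ApoeKO replicate 1, and 21.9%, 22.9% and 24.9% in Zeb1WT/ApoeKO replicate 2 and Zeb1ΔM/ApoeKO replicates 2 and 3.

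**Figure D1:**
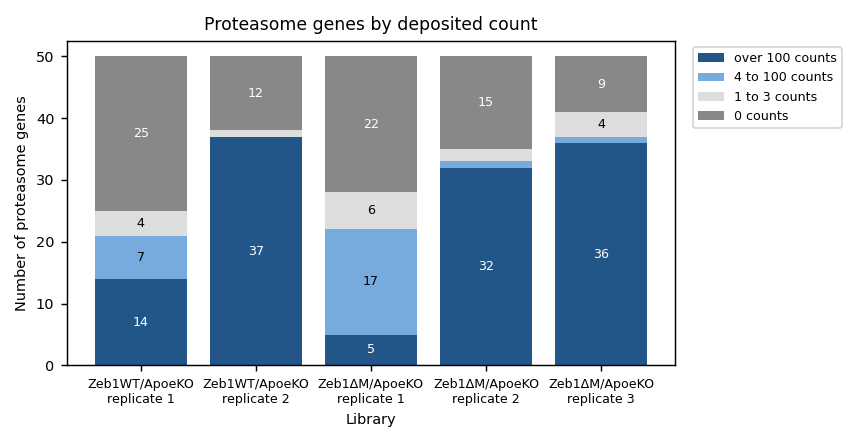
Number of the 50 proteasome genes (vertical axis) by deposited count class in each of the 5 libraries (horizontal axis), with classes of 2 genes or fewer drawn but not numbered. Genes with more than 100 counts number 37, 32 and 36 in Zeb1WT/ApoeKO replicate 2 and Zeb1ΔM/ApoeKO replicates 2 and 3, but 14 and 5 in the replicate 1 libraries.

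Detection in every library was the exception. Over the floor in all 5 were 10 genes, namely *Psma2*, *Psma6*, *Psma7*, *Psmb1*, *Psmb8*, *Psmc6*, *Psmd7*, *Psmd12*, *Psme2* and *Psme2b*, which is 21.3% of the 47 detected in any library. Among all protein-coding genes detected in any library the share was 6.46% (952 of 14743). Of 43 genes over 1000 counts in any library, only *Psma7* and *Psme2* had more than 1000 counts in every one. Among all protein-coding genes the numbers were 184 of 5394, also a small share. Without the replicate 1 libraries, 23 genes were over the floor in all 3 remaining libraries, 22 of them with more than 100 counts in each. Detection also failed within a genotype. At least 1 Zeb1WT/ApoeKO library held 34 genes at over 1000 counts, and 19 of these were at or below the floor in the other. Likewise, 26 of the 38 genes that exceeded 1000 counts in a Zeb1ΔM/ApoeKO library were at or below it in another library of that genotype. The share over all genes is not given for these numbers or for the 23 genes above, so they are not read as particular to proteasome genes. *Psmd11*, a lid subunit, had 22161 and 0 counts in the Zeb1WT/ApoeKO libraries and 0, 13374 and 0 in the Zeb1ΔM/ApoeKO libraries. The largest number of detected genes was shared across genotypes. Zeb1WT/ApoeKO replicate 2 and Zeb1ΔM/ApoeKO replicate 3 shared 32, 86.5% of those of each, and Zeb1ΔM/ApoeKO replicates 2 and 3 shared 27, which is 81.8% and 73.0% of theirs. Pairs with a replicate 1 library shared 13 to 18 genes within and across genotypes.

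**Figure D2:**
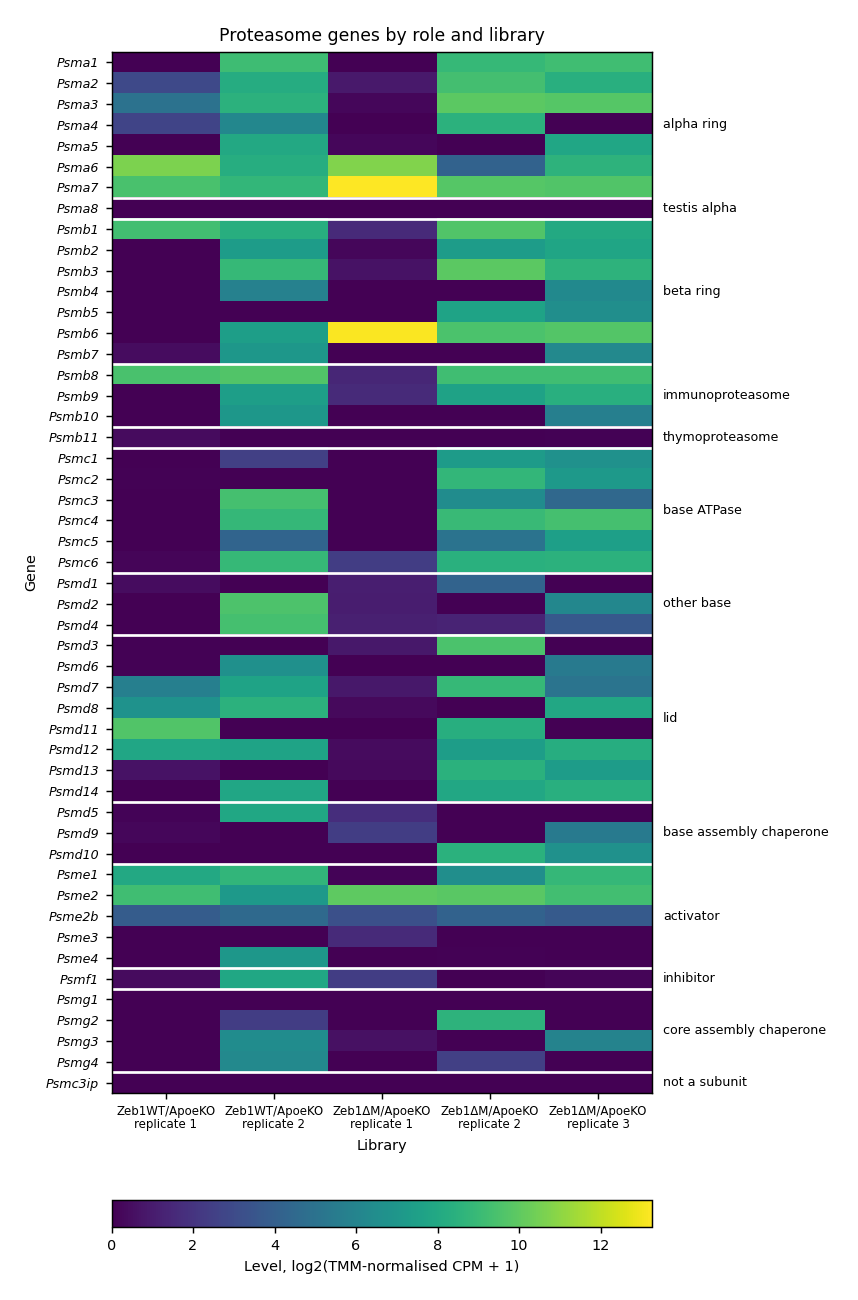
Level of each of the 50 genes (rows, grouped by role) in the 5 libraries (columns), as log2(TMM-normalised CPM + 1), where TMM is a scaling between libraries. Dark cells are genes at or near 0, and the replicate 1 libraries have the most of them, with 25 genes at 0 counts in Zeb1WT/ApoeKO and 22 in Zeb1ΔM/ApoeKO.

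By edgeR, no proteasome gene differed between the genotypes beyond the spread between libraries, whereas DESeq2 and limma-voom called a few. The filter on low counts kept 44 of the 50 genes, and edgeR's quasi-likelihood test called 0 of them at an adjusted p under 0.05, against 0% of all 7905 genes tested. At an unadjusted p under 0.05 it called 0 of the 44, against 1.09% (86) of all genes. The fitted log2 fold change, Zeb1ΔM/ApoeKO over Zeb1WT/ApoeKO here and throughout, was above 0 for 24 genes and below 0 for 20, with a median of 0.36, also with the 4 genes undetected in a genotype set to their bound. Over all genes tested 60.9% were above 0 and the median was 0.78. The test gives no standard error, so it was taken as the absolute log2 fold change over the square root of the F statistic. These approximate values were 2.50 to 8.73 on the log2 scale, and at that size changes of several fold were not detectable at this replication. DESeq2 called 3 proteasome genes of the 31 to which it gave an adjusted p, against 12.1% of all genes (6.87% higher in Zeb1ΔM/ApoeKO). limma-voom with sample quality weights called 4 of 44, against 2.96% of all genes (2.21% higher). These 4 were *Psmb5*, *Psmc2*, *Psmd10* and *Psmd13*, all higher in Zeb1ΔM/ApoeKO, and DESeq2 called the first 3. With the replicate 1 libraries left out, edgeR called 0 proteasome genes, against 0.0249% of all genes. DESeq2 then called 9, of which 6 were higher in Zeb1ΔM/ApoeKO, against 33.7% of all genes (19.6% higher).

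The genotypes did not overlap for 4 of the 44 tested genes on the TMM scale, against 11.2% of all genes tested. *Psma7*, *Psmb6* and *Psme2* were higher in every Zeb1ΔM/ApoeKO library (6.68% of all genes) and *Psmb8* was lower in every one (4.54% of all genes). *Psmb6* and *Psmb8* alone also did not overlap under total counts or RLE size factors, against 11.7% and 10.9% of all genes. With both replicate 1 libraries left out, where 1 library is set against 2, 32 of the 44 did not overlap, against 53.4% of all genes, a share that counts genes at 0 in all 3 libraries as overlapping. All 4 are described with their complexes. For single values the exact two-sided permutation test has 10 ways to divide the libraries into 2 and 3, and its p cannot go below 0.1.

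Of the alpha ring, whose outer face gates the barrel, 5 and 7 of the 7 genes were over the floor in the Zeb1WT/ApoeKO libraries and 3, 6 and 6 in the Zeb1ΔM/ApoeKO libraries. *Psma7* (ENSMUSG00000027566, GRCm38 chr2:180036374-180042433, minus strand) was the most evenly counted. It had 19603 and 15238 counts in the Zeb1WT/ApoeKO libraries and 119278, 36663 and 40061 in the Zeb1ΔM/ApoeKO libraries, or 710 and 442 against 9843, 857 and 797 TMM CPM. The 3 Zeb1ΔM/ApoeKO values were the highest, and replicate 1 lay far above all others. The means were 576 ± 189 (SD, n = 2) and 3832 ± 5205 (SD, n = 3) TMM CPM, and the exact permutation p was 0.4 on the log2 scale. The edgeR log2 fold change was 2.73 (SE 2.50, adjusted p = 1). It was 0.27 without Zeb1ΔM/ApoeKO replicate 1, and under total counts or RLE the genotypes overlapped. *Psma6* had 43941 and 10590 counts in Zeb1WT/ApoeKO and 20881, 718 and 19216 in Zeb1ΔM/ApoeKO, so that its lowest and highest Zeb1ΔM/ApoeKO libraries lay on either side of a Zeb1WT/ApoeKO library. *Psma2* had 181 and 10029 counts against 11, 26863 and 16710. It was low in the replicate 1 library of either genotype. *Psma1*, *Psma3*, *Psma4* and *Psma5* were each at or below the floor in at least 1 library, and *Psma4* ranged from 0 to 15630 counts. *Psma8*, the alpha subunit of male germ cells, had 0 counts throughout.

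In the beta ring, 2 and 6 of the 7 genes were over the floor in Zeb1WT/ApoeKO and 3, 5 and 7 in Zeb1ΔM/ApoeKO. *Psmb6* (ENSMUSG00000018286, GRCm38 chr11:70525367-70527858, plus strand), which encodes the caspase-like site beta1, had the lowest edgeR p of all proteasome genes. Its counts were 0 and 5976 in the Zeb1WT/ApoeKO libraries and 113687, 31601 and 41768 in the Zeb1ΔM/ApoeKO libraries. These are 0 and 173 against 9381, 739 and 831 TMM CPM, with means of 86.7 ± 123 (SD, n = 2) and 3650 ± 4963 (SD, n = 3). All 3 Zeb1ΔM/ApoeKO libraries were above both Zeb1WT/ApoeKO libraries. The edgeR log2 fold change was 5.40 (SE 2.98, unadjusted p = 0.0700, adjusted p = 1), and the exact permutation p was 0.1, the smallest possible. Leaving out Zeb1ΔM/ApoeKO replicate 1 gave 3.13, and leaving out Zeb1WT/ApoeKO replicate 2 left only a library at 0, with a fitted value of 19.43.

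*Psmb5* (ENSMUSG00000022193, GRCm38 chr14:54614119-54618022, minus strand) encodes the chymotrypsin-like site beta5, the main target of proteasome inhibitors. It had 0 and 0 counts in Zeb1WT/ApoeKO and 0, 8681 and 4599 in Zeb1ΔM/ApoeKO. The mean of the latter, 98.2 ± 102 TMM CPM (SD, n = 3), lay at least 1003-fold above the Zeb1WT/ApoeKO floor, but it came from replicates 2 and 3 alone, and replicate 1 was at 0 like both Zeb1WT/ApoeKO libraries. The edgeR adjusted p was 1, DESeq2's was 0.0205 and limma-voom's 0.00152. Of the 75-base stretches of its transcript, 35.8% also occur in the gene *Gm3375*, which had 29 and 15 counts in Zeb1ΔM/ApoeKO replicates 2 and 3 and 0 in the other libraries. *Psmb7*, which encodes the trypsin-like site beta2, had 10 and 4403 counts in Zeb1WT/ApoeKO and 0, 0 and 3690 in Zeb1ΔM/ApoeKO, so it was high in 1 library of each genotype. It shares 24.1% of its 75-base stretches with *Nek6*, which had 1502 counts in Zeb1ΔM/ApoeKO replicate 2 and at most 30 in the others. *Psmb1*, without a site of its own, was over the floor in all libraries with 16687 and 10781 against 24, 34889 and 13292 counts, and only Zeb1ΔM/ApoeKO replicate 1 was low. *Psmb2*, *Psmb3* and *Psmb4* were at 0 in Zeb1WT/ApoeKO replicate 1 and at 0 to 7 counts in Zeb1ΔM/ApoeKO replicate 1. In the other 3 libraries *Psmb3* had 16071, 42144 and 19297 counts, whereas *Psmb4* had 1919, 1 and 3916.

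Within 1 library the RNA of the core subunits differed widely in level. A core without replaced subunits holds their proteins in equal number, but protein was not measured in these libraries. Levels are compared between genes as CPM, here of total counts, per kilobase of transcript. Zeb1WT/ApoeKO replicate 2 was the most even. Of the 14 genes, 13 were over the floor, from *Psmb4* at 46.9 to *Psmb3* at 606, a 12.9-fold range. Zeb1ΔM/ApoeKO replicate 3 was close to it, with 13 genes from *Psmb7* at 62.8 to *Psmb6* at 1033, a 16.5-fold range. In Zeb1ΔM/ApoeKO replicate 2, 11 genes spanned 79.8-fold, from *Psma6* at 19.3 to *Psmb3* at 1538. In the replicate 1 libraries 7 and 6 genes spanned 4892-fold and 37701-fold. The genes that led and trailed were not the same from library to library, since *Psma6* was the highest of the 14 in Zeb1WT/ApoeKO replicate 1 and the lowest of those over the floor in Zeb1ΔM/ApoeKO replicate 2.

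**Figure D3:**
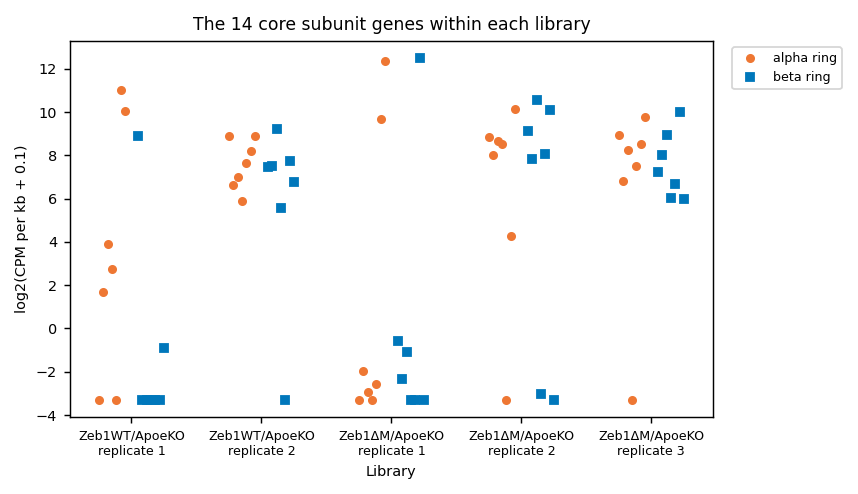
Level of the 14 core subunit genes in each library, as log2(CPM per kb + 0.1), with alpha ring genes as circles and beta ring genes as squares, each in the order of their numbers. Points at the bottom edge are genes at 0 counts, and those over the floor span 12.9-fold in Zeb1WT/ApoeKO replicate 2 and 37701-fold in Zeb1ΔM/ApoeKO replicate 1.

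Of the immunoproteasome, *Psmb8* was counted in every library, while *Psmb9* and *Psmb10* were not. *Psmb8* (ENSMUSG00000024338, GRCm38 chr17:34197721-34201454, plus strand) encodes beta5i, which takes the place of beta5. It had 19092 and 27918 counts in Zeb1WT/ApoeKO and 20, 24799 and 29434 in Zeb1ΔM/ApoeKO, or 691 and 810 against 1.65, 580 and 586 TMM CPM. All libraries but Zeb1ΔM/ApoeKO replicate 1 thus lay between 580 and 810, and the gap between the genotypes was smaller than that between the Zeb1WT/ApoeKO libraries. The means were 751 ± 84.1 (SD, n = 2) and 389 ± 336 (SD, n = 3), the exact permutation p was 0.5, and the edgeR log2 fold change was -0.95 (SE 3.18, adjusted p = 1). Without Zeb1ΔM/ApoeKO replicate 1 it was -0.57. *Psmb9* (beta1i, GRCm38 chr17:34181987-34187764, minus strand) had 0 and 5865 counts in Zeb1WT/ApoeKO and 24, 8552 and 16687 in Zeb1ΔM/ApoeKO. It was low in both replicate 1 libraries and overlapped between genotypes, with an edgeR log2 fold change of 1.06 (SE 4.47, adjusted p = 1). This value was 0.18 without Zeb1WT/ApoeKO replicate 1 and 15.61 without replicate 2 of that genotype, which leaves a library at 0. It overlaps *Tap1*, with which it shares 10.8% of its 75-base stretches, and *Tap1* had at most 23 counts. *Psmb10* (beta2i, GRCm38 chr8:105935735-105938444, minus strand) had 0 and 4436 counts against 0, 0 and 2604, high in the same libraries as *Psmb7*. Its edgeR log2 fold change was -1.90 (SE 4.84, adjusted p = 1) and turned to 12.25 without Zeb1WT/ApoeKO replicate 2. *Psmb11*, the beta subunit of thymic cortical epithelium, had at most 9 counts.

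T cells express these genes strongly, and their markers varied between libraries. The 6 T cell markers summed to 10.3 and 4307 CPM in Zeb1WT/ApoeKO and to 0.821, 433 and 956 CPM in Zeb1ΔM/ApoeKO, with 2, 6, 2, 4 and 4 of the 6 over the floor. *Cd3d* was at 0 in 3 libraries and *Trac* at 0 in Zeb1WT/ApoeKO replicate 1 and Zeb1ΔM/ApoeKO replicate 2. *Psmb8* was at 691 TMM CPM in Zeb1WT/ApoeKO replicate 1, where these markers summed to 10.3 CPM. *Psmb9* and *Psmb10* were at 0 in that library, and the part of T cells in their levels was not tested.

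Each immunoproteasome gene was set against the constitutive gene it replaces as a log2 ratio within a library, per kilobase and with 3 counts added, which needs no scaling between libraries. *Psmb8* over *Psmb5* was 11.78 and 12.33 in Zeb1WT/ApoeKO and 2.08, 0.66 and 1.82 in Zeb1ΔM/ApoeKO. *Psmb8* was the higher in 5 of 5 libraries. *Psmb5* was at 0 in both Zeb1WT/ApoeKO libraries and in Zeb1ΔM/ApoeKO replicate 1, so these 3 ratios are set by the 3 counts added and are lower bounds. The true ratio of Zeb1ΔM/ApoeKO replicate 1 could lie with those of Zeb1WT/ApoeKO, and neither a gap between the genotypes nor the size of the difference is established. The means were 12.05 ± 0.39 (SD, n = 2) and 1.52 ± 0.76 (SD, n = 3), a difference of -10.53 (exact two-sided permutation p = 0.1, the smallest possible, and 0.3 adjusted over 3 pairs). The low ratios had different makings. In Zeb1ΔM/ApoeKO replicates 2 and 3 *Psmb5* was counted, at 270 and 101 CPM per kilobase beside 426 and 357 of *Psmb8*, and in replicate 1 *Psmb5* was at 0 and *Psmb8* at 0.504. *Psmb9* over *Psmb6* was -0.76 and -0.79 in Zeb1WT/ApoeKO and -12.80, -2.65 and -2.08 in Zeb1ΔM/ApoeKO. Both genes were at 0 in Zeb1WT/ApoeKO replicate 1, so that value carries only the lengths of the genes. *Psmb6* was the higher in the other 4 libraries. The difference of the means, -5.07, had an exact permutation p of 0.3 and 0.4 adjusted, and it was -1.59 without Zeb1ΔM/ApoeKO replicate 1. *Psmb10* over *Psmb7* was -2.29 and -0.17 against -0.18, -0.18 and -0.68, of which the first 2 values of Zeb1ΔM/ApoeKO have both genes at 0. The difference was 0.88 (exact permutation p = 0.4, also adjusted) and became -0.18 without Zeb1WT/ApoeKO replicate 1. Where both genes of this pair were counted well, in Zeb1WT/ApoeKO replicate 2 and Zeb1ΔM/ApoeKO replicate 3, they were at 97.8 and 110, and at 39.2 and 62.8 CPM per kilobase.

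**Figure D4:**
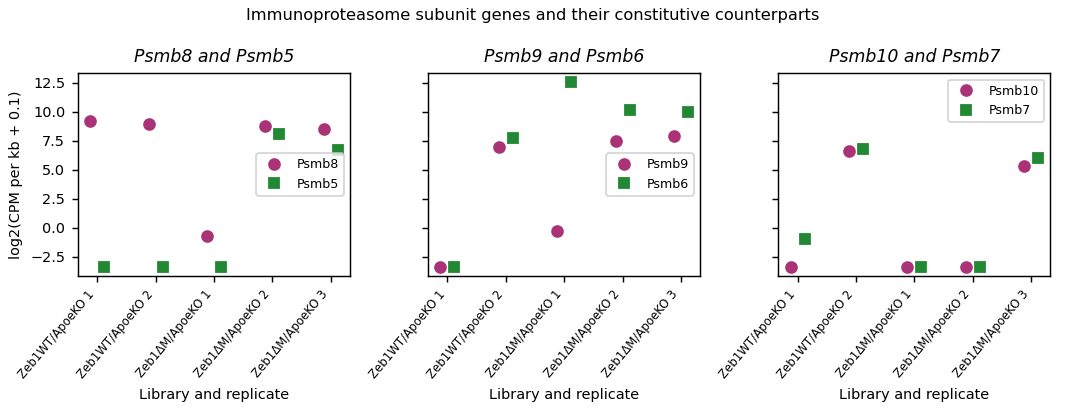
Levels of the 3 immunoproteasome genes (circles) and of the constitutive gene that each replaces (squares) in the 5 libraries, as log2(CPM per kb + 0.1). *Psmb5* is at 0 in both Zeb1WT/ApoeKO libraries and at 270 and 101 in Zeb1ΔM/ApoeKO replicates 2 and 3, and *Psmb8* is above *Psmb5* in every library.

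Genes of the regulatory particle were near 0 in Zeb1ΔM/ApoeKO replicate 1. Of its 17 base and lid genes, 7 and 12 were over the floor in the Zeb1WT/ApoeKO libraries and 7, 14 and 14 in the Zeb1ΔM/ApoeKO libraries, and their TMM CPM summed to 1195 and 4126 against 10.2, 3865 and 2659. The 14 core genes summed in the same libraries to 2948 and 3589 against 20951, 6205 and 5153. As shares of all counts the core sums were 0.405% and 0.357% against 1.04%, 0.742% and 0.511%. The lead of Zeb1ΔM/ApoeKO replicate 1 was thus smaller without TMM, whose factor for that library was 0.515. The core sum of Zeb1ΔM/ApoeKO replicate 1 was carried by *Psma7*, *Psmb6* and *Psma6*. There, 8 of the 14 core genes were at or below the floor, and the median was 0.165 TMM CPM for core and 0.248 for base and lid genes. The 6 base ATPases, which form the unfolding ring, summed to 0.217 and 1596 against 4.29, 1558 and 1463 TMM CPM, so the sum was near 0 in both replicate 1 libraries and differed little among the other 3. *Psmc6* was the only ATPase over the floor in every library, with 4 and 16010 counts against 52, 14539 and 18637. *Psmc1*, *Psmc3*, *Psmc4* and *Psmc5* were at 0 in both replicate 1 libraries and over the floor in the other 3, where *Psmc4* had 15588, 21909 and 32543 counts and *Psmc3* 22602, 3638 and 1083. *Psmc2* (GRCm38 chr5:21785283-21803787, plus strand) had 2 and 0 counts in Zeb1WT/ApoeKO and 0, 18634 and 7044 in Zeb1ΔM/ApoeKO. Its Zeb1ΔM/ApoeKO mean of 192 ± 222 TMM CPM (SD, n = 3) was at least 1962-fold above the floor of the Zeb1WT/ApoeKO libraries, while Zeb1ΔM/ApoeKO replicate 1 was at 0. The edgeR unadjusted p was 0.115 and the adjusted p 1.

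The other base subunits did not follow the ATPases. *Psmd2*, a scaffold that receives ubiquitin-like proteins, had 0 and 26297 counts in Zeb1WT/ApoeKO and 13, 0 and 3504 in Zeb1ΔM/ApoeKO. The ubiquitin receptor *Psmd4* had 0 and 22595 counts against 15, 65 and 574, and *Psmd1* had at most 14 counts outside Zeb1ΔM/ApoeKO replicate 2, where it had 749. In the lid, *Psmd7* and *Psmd12* were over the floor in all libraries. *Psmd12* had 6431 and 7024 counts against 4, 7213 and 15549, or 233 and 204 against 0.330, 169 and 309 TMM CPM, so 4 of 5 libraries differed by less than 2-fold. *Psmd7* had 1433 and 7046 counts against 10, 20362 and 1677. *Psmd14*, the deubiquitinase of the lid, had 0 and 7924 counts against 0, 10455 and 16335, at 0 in both replicate 1 libraries. *Psmd13* had 16 and 0 counts against 3, 15027 and 7972, and over all 5 libraries limma-voom called it (adjusted p = 0.0229) while edgeR and DESeq2 did not. Its exons overlap those of *Sirt3*, on the opposite strand, by 342 bases, and the libraries do not keep the strand. *Sirt3* had 0 and 4188 counts in Zeb1WT/ApoeKO and 9, 0 and 0 in Zeb1ΔM/ApoeKO. How reads were divided between *Psmd13* and *Sirt3* was not tested. *Psmd3* (GRCm38 chr11:98682554-98695979, plus strand) had 2 and 0 counts in Zeb1WT/ApoeKO and 10, 31446 and 1 in Zeb1ΔM/ApoeKO. Its Zeb1ΔM/ApoeKO mean was at least 2508-fold above the Zeb1WT/ApoeKO floor and came from 1 library, with an edgeR unadjusted p of 0.0926.

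Assembly chaperones were counted in few libraries. *Psmd10*, or gankyrin (GRCm38 chrX:140948429-140956728, minus strand), which guides assembly of the base, had 0 and 0 counts in Zeb1WT/ApoeKO and 0, 15095 and 5272 in Zeb1ΔM/ApoeKO. The pattern was that of *Psmb5* and *Psmc2*, with Zeb1ΔM/ApoeKO replicates 2 and 3 high and the other 3 libraries at or below the floor. Its mean of 153 ± 181 TMM CPM (SD, n = 3) was at least 1560-fold above the floor of the Zeb1WT/ApoeKO libraries. The adjusted p was 1 with edgeR (unadjusted 0.0733), 4.39e-08 with DESeq2 and 0.000518 with limma-voom. The log2 fold changes that these tools fitted were 15.32, 26.99 and 12.66, and DESeq2 gave 15.43 without the replicate 1 libraries. With Zeb1WT/ApoeKO at 0 the size of the change is not determined, and the low DESeq2 p rests on the extreme fitted value. *Psmd5* had 3 and 8331 counts against 28, 0 and 0, high in Zeb1WT/ApoeKO replicate 2 alone, and *Psmd9* had 5 and 1 against 52, 0 and 2115. Of the core chaperones, *Psmg1* had 0 counts in every library and its partner *Psmg2* had 0 and 148 against 0, 16066 and 1. *Psmg3* had 0 and 3031 against 6, 0 and 3060 counts, and *Psmg4* 0 and 2621 against 0, 205 and 0.

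**Figure D5:**
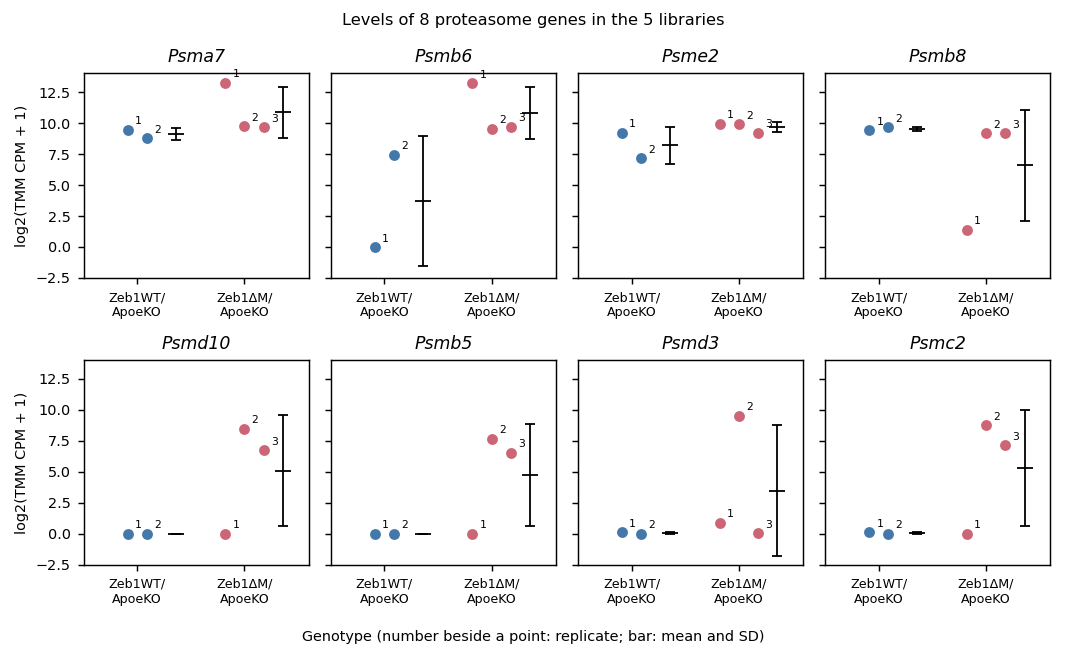
Levels of 8 proteasome genes as log2(TMM CPM + 1) by genotype, with each library as a point numbered by its replicate and the mean and SD as a bar beside the points (n = 2 and 3). The upper row holds the 4 genes whose genotypes do not overlap on this scale and the lower row *Psmd10*, *Psmb5*, *Psmd3* and *Psmc2*, in which Zeb1ΔM/ApoeKO replicate 1 lies with the Zeb1WT/ApoeKO libraries at or near 0.

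The activator genes *Psme1* and *Psme2* encode PA28 alpha and beta, an interferon-induced cap of the core. *Psme2* (ENSMUSG00000079197, GRCm38 chr14:55587441-55591113, minus strand) has a close relative, *Psme2b* (ENSMUSG00000078153, GRCm38 chr11:48945354-48946190, minus strand), and both were over 100 counts in every library. Their coding sequences in GENCODE M21 have 717 bases each and are identical at 712 (99.3%), with the first 311 bases the same. The stretch of coding positions 394 to 543 is shown because it holds 3 of the 5 differences, in capitals, and elsewhere the pair reads the same over long runs.
Psme2: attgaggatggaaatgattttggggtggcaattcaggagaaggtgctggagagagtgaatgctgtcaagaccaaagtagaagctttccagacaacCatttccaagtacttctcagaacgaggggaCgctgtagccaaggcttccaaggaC
Psme2b: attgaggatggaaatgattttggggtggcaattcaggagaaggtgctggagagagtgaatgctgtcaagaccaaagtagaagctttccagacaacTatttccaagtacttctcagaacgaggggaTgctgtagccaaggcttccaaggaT

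Of the 75-base stretches of the *Psme2* transcript 51.7% occur also in *Psme2b*, and 60.2% of those of *Psme2b* in *Psme2*, so the division of counts between the pair is uncertain. *Psme2* had 16480 and 4871 counts in Zeb1WT/ApoeKO and 12060, 40449 and 30120 in Zeb1ΔM/ApoeKO. On the TMM scale these were 597 and 141 against 995, 946 and 600 CPM, so that the highest Zeb1WT/ApoeKO library and the lowest Zeb1ΔM/ApoeKO library were nearly equal. The means were 369 ± 322 (SD, n = 2) and 847 ± 216 (SD, n = 3), with an exact permutation p of 0.1 and an edgeR log2 fold change of 1.20 (SE 3.21, adjusted p = 1). It was 2.55 without Zeb1WT/ApoeKO replicate 1 and 0.31 without replicate 2 of that genotype. The genotypes overlapped under total counts and RLE. *Psme2b* had 367 and 766 counts against 101, 734 and 623, or 13.3 and 22.2 against 8.33, 17.2 and 12.4 TMM CPM, the narrowest range of the genes over the floor in all libraries. *Psme1* had 7032 and 14424 counts against 1, 3923 and 22883, and so Zeb1ΔM/ApoeKO replicate 1 held *Psme2* with almost no *Psme1*. *Psme3*, the nuclear PA28 gamma, had 24 counts in Zeb1ΔM/ApoeKO replicate 1 and 0 in the other 4. *Psme4* was counted only in Zeb1WT/ApoeKO replicate 2, at 4362, with 2 counts in Zeb1ΔM/ApoeKO replicate 2. The inhibitor *Psmf1* had 8 and 8228 counts against 53, 0 and 6, high in that same library.

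Genes that serve the proteasome were read from a list of 25, of which 24 were found and 18 tested. The list holds further subunits and partners, the assembly factor *Pomp*, the regulator *Nfe2l1*, shuttle factors and the ubiquitin genes. edgeR called 0 of the 18, against 0% of all genes, and 0 had an unadjusted p under 0.05, against 1.09%. Of the 18, 6 had a log2 fold change above 0 and 12 below 0, with a median of -1.69, also with 1 gene set to its bound, against 0.78 over all genes. *Pomp*, *Ubb* and *Rps27a* were among those over the floor in all libraries. *Rps27a*, a fusion of ubiquitin to a ribosomal protein, had 7223 and 4174 counts in Zeb1WT/ApoeKO and 102854, 13355 and 23328 in Zeb1ΔM/ApoeKO, and was higher in every Zeb1ΔM/ApoeKO library on the TMM scale. *Adrm1*, a ubiquitin receptor of the base, had 57 and 1545 counts against 13, 0 and 0, and the shuttle factor *Rad23b* 107 and 668 against 11, 0 and 0. Both were lower in every Zeb1ΔM/ApoeKO library, which makes 3 of 18 without overlap, against 11.2% of all genes. The polyubiquitin gene *Ubb* had 296368 and 459708 counts against 33, 698024 and 765383. In Zeb1ΔM/ApoeKO replicate 1 *Ubb* was thus near 0, while *Rps27a* had its highest count there. *Pomp*, which matures the core and is needed to build it, had 4575 and 9900 counts against 24, 35590 and 23610, and *Nfe2l1*, the factor that raises proteasome genes when the proteasome is inhibited, had 6 and 222 against 14, 3 and 15.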

How the data were processed

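Aortic macrophages were measured in 5 RNAseq libraries, with groups taken from the labelled genotype. The authors mapped reads to GRCm38 with STAR and quantified genes with RSEM (versions 2.5.3a and 1.3.0 in the submitters' processing notes), and deposited expected counts as whole numbers, not normalised or filtered. Because counts were estimated, reads shared by similar genes may be divided between them.

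Counts were tested with edgeR 4.0.16 in R 4.3.3 (filterByExpr minimum count 10, TMM, quasi-likelihood test between genotypes without covariates, Benjamini-Hochberg over 7905 genes, threshold 0.05). TMM CPM uses the library sizes of these genes. Levels per kilobase use the principal transcript in GENCODE M21, also GRCm38, and total counts. Where both Zeb1WT/ApoeKO libraries had at most 3 counts, the fold is a lower bound. It is the mean Zeb1ΔM/ApoeKO TMM CPM over the mean of 3 counts per Zeb1WT/ApoeKO library. No such fold was computed in the other direction, as for *Psme4*, so every fold over a floor is higher in Zeb1ΔM/ApoeKO by construction. Shared stretches of 75 bases were sought in that transcriptome. Alternatives were DESeq2 1.42.0, limma-voom (limma 3.58.1), RLE, other filters, the replicate number as a block, each library left out and a threshold of 0.1. Leaving out both replicate 1 libraries was added after seeing the data. Simulated counts served only to check that the test code ran properly, and no result here rests on them. Python 3.11.15 with scipy 1.17.1 served for permutation tests and matplotlib 3.10.9 for figures.

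Genes are named by a rule: values in every library for catalytic and immunoproteasome subunits, genes over the floor everywhere, genes without overlap, the 5 lowest edgeR p-values, and the rest by role. The members and lists were chosen with earlier results of these data known. 5 pseudogene symbols and *Paaf1* were not analysed here. Some listed genes are not reported here.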

Additional observations from a re-analysis of the deposited data

How the results depend on the processing

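With 2 and 3 libraries and a common dispersion of 6.44, edgeR called 0 genes, and also 0 with RLE, other filters and each library left out, while DESeq2 called 790 and limma-voom 234. Of proteasome genes these tools called 0, 3 and 4. Without both replicate 1 libraries edgeR called 2 genes and DESeq2 2567, with 0 and 9 proteasome genes, and DESeq2 also called 6 of 19 other ubiquitin-proteasome genes, against 33.7% of all genes. The cause was not tested. The labels give replicate numbers 1 and 2 to both genotypes. With 2 pairs, the deviations of same-numbered libraries correlated at 0.18 across 7905 genes, and with the replicate number as a block edgeR called 0 genes, 7 at an unadjusted p under 0.05, and 0 proteasome genes. RLE moved the median log2 fold change of all genes from 0.78 to 1.24 and that of the proteasome genes from 0.36 to 0.38. The latter was -0.72 with the block, against 0.60 for all genes, and 1.11 against -0.30 with limma-voom. Without Zeb1WT/ApoeKO replicate 1 it was -0.13 against 6.42 and without replicate 2 of that genotype 8.80 against 6.32, so its place beside all genes was not stable. Genes without overlap numbered 4 with TMM (3 higher, 1 lower), 2 with total counts, 2 with RLE (1 higher, 1 lower) and 32 without both replicate 1 libraries, against 11.2%, 11.7%, 10.9% and 53.4% of all genes. Genes over the floor in all libraries numbered 10, 4 with a floor of 1 CPM and 23 without both replicate 1 libraries.

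Each library left out in turn, the difference in the *Psmb8* to *Psmb5* ratio was -10.81 to -10.10, that of *Psmb9* to *Psmb6* -6.95 to -1.59, and that of *Psmb10* to *Psmb7* -0.18 to 1.95. With 1 or 10 counts added in place of 3, the differences were -11.63 and -9.25, -5.11 and -4.96, and 1.56 and 0.33. The fitted log2 fold changes of *Psmb10* and *Psmb9* with a library left out were -2.77 to 12.25 and 0.18 to 15.61, and those of *Psma7*, *Psmb6*, *Psme2* and *Psmb8* were 0.27 to 3.42, 3.13 to 19.43, 0.31 to 2.55 and -1.38 to -0.57. Leaving out a Zeb1WT/ApoeKO library leaves 1 of that genotype, assumed to vary like the other libraries. The part of depth in which genes were counted was not tested.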
